A study of Arabidopsis thaliana with 20 samples.

Results

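The Arabidopsis thaliana plastid genome encodes the membrane-spanning core of the photosynthetic apparatus, and 44 of its genes were followed here through a shift to high light in 2 genotypes. They were chosen from the 33104 annotated genes as the protein-coding genes of the plastid (annotated as chromosome Pt) whose names begin, in either case, with PSA, PSB, PET, ATP, NDH or RBCL. This took 44 of the 88 protein-coding genes among 134 plastid genes: 15 genes of photosystem II, 5 of photosystem I, 5 of the cytochrome b6f complex, 6 of ATP synthase, 12 of the NAD(P)H dehydrogenase-like (NDH) complex and 1 of Rubisco. The subunit gene petL carries another name in the annotation and was therefore outside the rule.

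Whole leaves of 4-week-old plants grown in 10 h days were sampled, and all 20 libraries came from plants that had first received 2 h of normal light at 100 µmol photons m-2 s-1. The wild type Col-0 and plants labelled ilp1-1, a mutant of the spliceosome-associated protein ILP1, were each sampled at 0 h, after 4, 8 and 16 h of continuous high light at 500 µmol photons m-2 s-1, and at 30 h, after 24 h of high light and 6 h back in normal light. Each of the 10 groups has 2 libraries. Whether replicates were separate plants is not given by the labels, so a p-value here reflects the spread between library pairs, which may be technical. Time of day changed with sampling time, so within a genotype a change from 0 h carries both light treatment and time of day, which cannot be told apart.

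Levels are FPKM (fragments per kilobase of transcript, divided by a size factor of each library), which are per length. How much of each RNA was captured was not measured, so levels of different genes compare captured RNA. Recovered reads ranged from 11.4 M to 19.0 M per library (M, mega). ILP1 mRNA was no lower in samples labelled ilp1-1: it stood at 8.03 ± 1.22 FPKM there against 3.26 ± 0.883 in Col-0 at 0 h (SD, n = 2 each), a difference of 1.09 ± 0.18 (SE, n = 2 against 2; limma adjusted p = 3.81e-04) in log2(FPKM + 1), and at 4 h the difference was 0.51 ± 0.18. The labels do not give the kind of allele, so transcript level does not check the genotype, and the groups are called by their labels. As a check of tissue, the leaf gene RBCS1A ranged from 12026 to 25792 FPKM and CA1 from 402 to 1808. Leaf genes LHCA1 and LHCB2.1 varied widely, from 314 to 5645 and from 20.4 to 4179 FPKM. LHCB2.1 was lowest at 16 h, close to the root gene BGLU23, which was at 6.00 to 17.4 FPKM. The seed genes CRA1, CRC, SESA3 and OLEO1 were at most 0.173 FPKM.

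Chloroplast genes are read by a bacterial-type RNA polymerase encoded in the plastid, which needs nuclear sigma factors to find promoters, and by phage-type polymerases encoded in the nucleus. Many are transcribed together as polycistronic units and then cut, trimmed and protected at their ends by nuclear-encoded RNA-binding proteins. Plastid transcripts mostly lack the long poly-A tails of nuclear messengers, and short A-rich tails on plastid RNA are known as a mark of RNA decay. The libraries here were made from RNA bound to poly-T beads, so their plastid values count the captured portion of each transcript and not its whole amount.

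The sequences of the genes at either end of the response are shown first, 5′ to 3′ on the coding strand, with the first and last codon in capitals. They were read from the RefSeq plastid record (154478 bases, assembly TAIR10.1) at the coordinates the deposited tables give; 41 of the 44 coordinate pairs were also a gene in that record, and the exceptions were NDHD and both copies of NDHB. PSBZ (Pt:35751-35939, plus strand), PSBE (Pt:64071-64322, minus strand), PSBI (Pt:7583-7693, plus strand) and PSBM (Pt:28707-28811, minus strand) encode small subunits of photosystem II. PSBZ and PSBE had the largest differences between genotypes at 4 h on the log2(FPKM + 1) scale, and PSBI and PSBM the smallest. PSAJ (Pt:66929-67063, plus strand) encodes a small subunit of photosystem I and had the highest level in Col-0.
PSBZ: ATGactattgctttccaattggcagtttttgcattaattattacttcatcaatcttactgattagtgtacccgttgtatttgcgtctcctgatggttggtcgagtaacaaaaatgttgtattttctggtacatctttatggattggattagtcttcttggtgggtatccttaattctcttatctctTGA
PSBE: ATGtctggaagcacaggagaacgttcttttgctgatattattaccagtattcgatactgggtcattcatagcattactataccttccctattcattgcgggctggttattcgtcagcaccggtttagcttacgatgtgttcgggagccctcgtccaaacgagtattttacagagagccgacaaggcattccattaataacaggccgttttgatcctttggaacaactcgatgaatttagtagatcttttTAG
PSBI: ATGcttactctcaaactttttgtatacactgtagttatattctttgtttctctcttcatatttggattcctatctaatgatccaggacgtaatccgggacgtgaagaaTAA
PSBM: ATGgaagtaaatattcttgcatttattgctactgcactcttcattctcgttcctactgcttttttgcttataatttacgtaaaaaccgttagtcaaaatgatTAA
PSAJ: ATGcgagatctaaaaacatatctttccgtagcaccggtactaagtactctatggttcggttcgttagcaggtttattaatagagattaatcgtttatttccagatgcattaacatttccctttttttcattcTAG

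Neighbouring genes overlap in places within the set, so their reads can be shared. The psbD and psbC reading frames share 53 bases (Pt:33720-33772, plus strand), shown with the annotated first codon of psbC and the last codon of psbD in capitals. The atpB and atpE frames share 4 bases, shown in capitals within the 30 bases around them (Pt:52647-52676, minus strand).
psbD and psbC overlap: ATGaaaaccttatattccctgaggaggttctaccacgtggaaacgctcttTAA
atpB and atpE junction: gtaaattgaagaaATGAccttaaatctttg

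Another set of letters bears on transcription. The 250 bases before each start codon were searched on the gene's strand for TTGACA, then 15 to 20 bases, then TANNNT, the form of a bacterial-type promoter. Members held it in 2 of 44 windows (4.55%), PSBA and ATPF, and all protein-coding plastid genes in 4 of 88 (4.55%). The PSBA match lay 85 bases before the start codon (Pt:1530-1559, minus strand; both elements in capitals). A match is a description of letters and not a mapped promoter.
PSBA promoter letters: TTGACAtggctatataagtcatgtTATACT

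After 4 h of high light, reads from the 44 genes were far more abundant in the ilp1-1-labelled libraries than in any other group. They made up 0.1503% and 0.334% of all reads there, against 0.0134% and 0.0156% in Col-0 at 4 h. At 8 h the shares were 0.0692% and 0.0964% in those labelled ilp1-1 and 0.0109% and 0.0148% in Col-0. The other 16 libraries, which include the 0, 16 and 30 h samples of both genotypes, ranged from 0.00925% to 0.0192%, with 1249 to 3638 reads each from these genes. The groups at 4 h and at 8 h therefore did not overlap, and the 2 libraries labelled ilp1-1 at 4 h also stood apart from each other, with replicate 2 the higher for 43 of the 44 genes (median ratio 2.37). In bulk leaf RNA, a change in the cells sampled and a change in RNA per cell cannot be told apart.

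**Figure D1:**
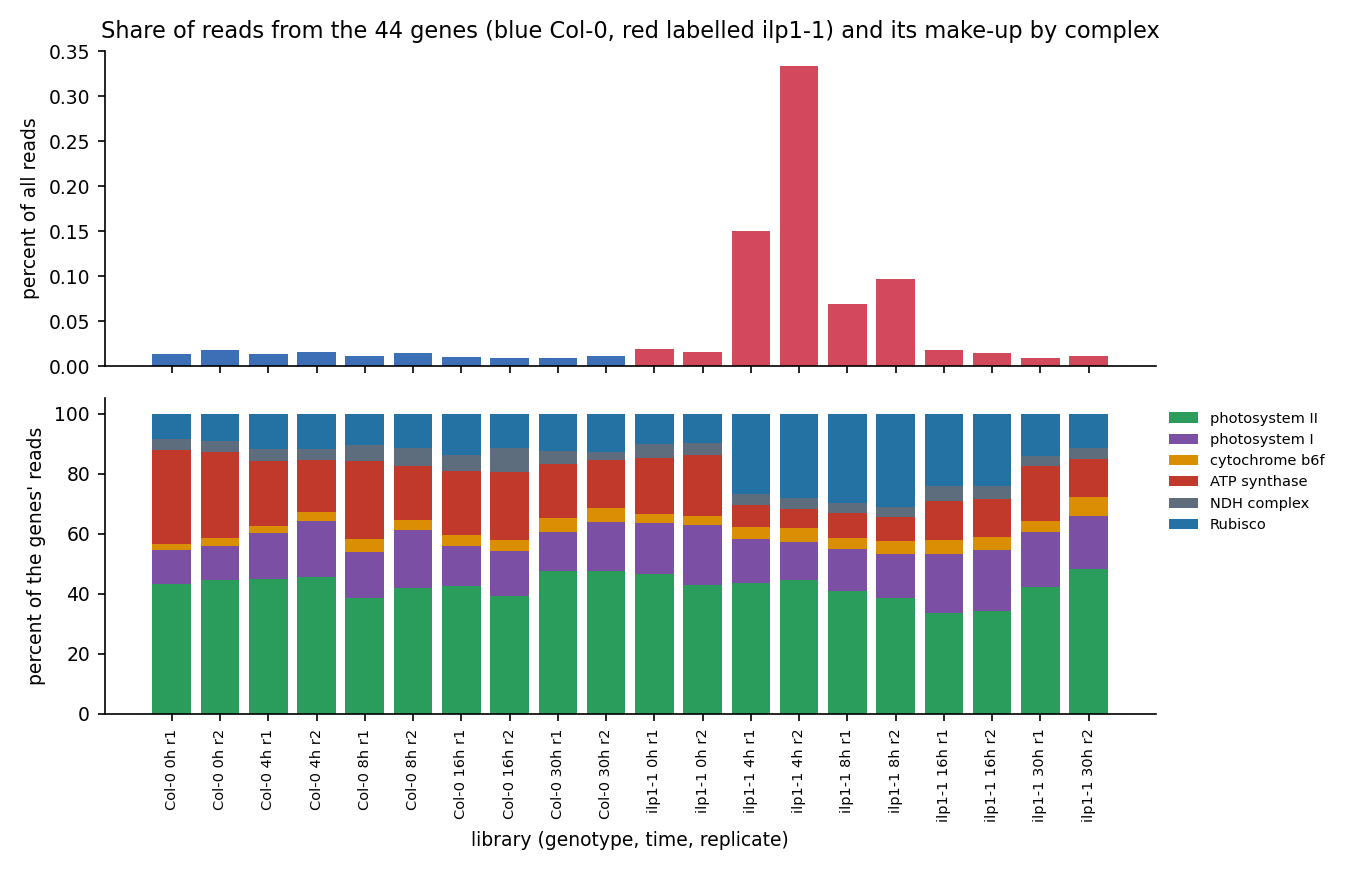
The upper bars give the percent of all recovered reads that came from the 44 genes in each library, and the lower bars split those reads by complex in percent. The 4 libraries labelled ilp1-1 at 4 h and 8 h stand at 0.0692% to 0.334% against at most 0.0192% elsewhere, and the Rubisco portion (RBCL) is largest in the same 4 libraries.

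At the level of single genes, both 4 h libraries labelled ilp1-1 were above both Col-0 4 h libraries for all 44 genes, and above every one of the other 18 libraries for 37. For the test, log2(FPKM + 1) was fitted with limma over all 20 libraries for the 19311 genes with at least 1 FPKM in at least 2 libraries, and a gene was called at a Benjamini-Hochberg adjusted p under 0.05. NDHB.1 and NDHB.2, near-identical inverted-repeat copies whose reads cannot be assigned to one copy, did not reach this level (9 and 14 reads over all libraries). NDHD, NDHI, NDHH and NDHF reached it only through the 4 h and 8 h libraries labelled ilp1-1, where they were high. Of the other 38 genes, 38 were higher at 4 h in those labelled ilp1-1. Over all genes tested, 14.7% were called higher and 15.8% lower, 30.6% in all. The median difference was 3.57 over the 38 genes and 0.01 over all genes tested.

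Photosystem II splits water and feeds electrons into the chain, and all 15 of its plastid genes were higher at 4 h, with a median difference of 3.85 on the log2 scale (3.98 without PSBN, which lies opposite the psbB unit). PSBZ, a small subunit at the edge of the reaction centre, changed most. PSBZ stood at 5.03 and 6.02 FPKM at 0 h, 4.97 and 3.12 at 4 h, 2.23 and 1.501 at 8 h, 3.13 and 3.86 at 16 h and 2.77 and 1.29 at 30 h in the Col-0 libraries. PSBZ read 4.52 and 9.84 FPKM at 0 h, 301 and 959.6 at 4 h, 86.2 and 126 at 8 h, 11.6 and 6.06 at 16 h and 1.33 and 2.24 at 30 h in the ilp1-1-labelled libraries. The genotypes overlapped at 0 h and 30 h, and the libraries labelled ilp1-1 were above Col-0 at 4, 8 and 16 h. The 4 h difference was 6.76 ± 0.45 (SE, n = 2 against 2; limma adjusted p = 3.71e-08), and the ratio of mean FPKM was 156. PSBZ had 3 reads in its lowest library, so its Col-0 values carry wide counting error.

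PSBA encodes D1, the reaction-centre protein that is damaged and replaced in high light. PSBA stood at 22.7 and 31.0 FPKM at 0 h, 26.5 and 30.4 at 4 h, 14.2 and 22.3 at 8 h, 19.999 and 14.4 at 16 h and 19.5 and 25.4 at 30 h in Col-0. PSBA read 31.7 and 21.6 FPKM at 0 h, 294 and 611 at 4 h, 122 and 154 at 8 h, 19.5 and 13.2 at 16 h and 14.2 and 19.95 at 30 h in the ilp1-1-labelled libraries. Outside the 4 h and 8 h libraries labelled ilp1-1, all values lay between 13.2 and 31.7 FPKM and the genotypes overlapped at every time. The difference was 3.85 ± 0.32 (SE, n = 2 against 2; limma adjusted p = 2.97e-07) at 4 h and 2.87 ± 0.32 (SE, n = 2 against 2; limma adjusted p = 7.19e-06) at 8 h.

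PSBD encodes D2, the partner of D1. PSBD stood at 3.86 and 3.53 FPKM at 0 h, 3.69 and 6.74 at 4 h, 2.71 and 4.61 at 8 h, 2.31 and 1.31 at 16 h and 1.90 and 2.29 at 30 h in Col-0. PSBD read 6.13 and 2.502 FPKM at 0 h, 48.1 and 92.6 at 4 h, 17.4 and 19.3 at 8 h, 3.21 and 2.79 at 16 h and 2.60 and 2.19 at 30 h in the ilp1-1-labelled libraries, which lay above Col-0 at 4, 8 and 16 h and overlapped it at 0 h and 30 h. The 4 h difference was 3.49 ± 0.34 (SE, n = 2 against 2; limma adjusted p = 1.66e-06). PSBM, a small subunit at the dimer interface, had the smallest difference of the complex, with 67.9 and 114 FPKM in the ilp1-1-labelled libraries and 53.7 and 46.5 FPKM in Col-0 at 4 h, a difference of 0.81 ± 0.25 (SE, n = 2 against 2; limma adjusted p = 0.0217). PSBI, another small subunit, was next at 0.88 ± 0.28. These genes stood at 44.5 and 47.3 FPKM on average in Col-0, against 3.39 FPKM for PSBZ. PSBM lost its call without Col-0 4 h replicate 2, without ilp1-1 4 h replicate 2 (0.43, adjusted p = 0.271) and with only the 4 h libraries fitted.

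**Figure D2:**
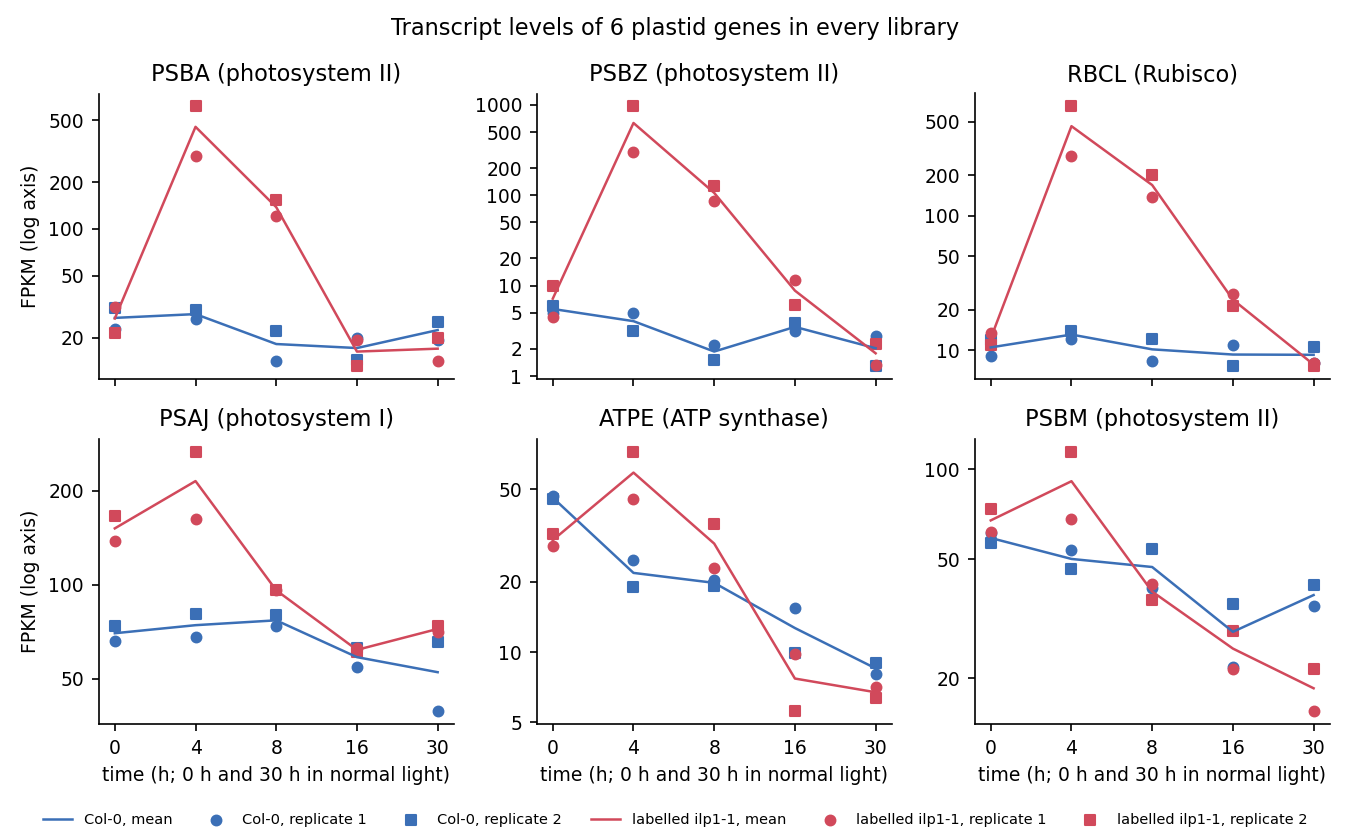
Points show FPKM on a log axis in every library of 6 genes over the 5 times, and lines join the mean of the 2 replicates of each genotype. PSBA, PSBZ and RBCL of the libraries labelled ilp1-1 lie far above Col-0 at 4 h and 8 h and close to it at 30 h; PSAJ, ATPE and PSBM move less, and ATPE is lower at 30 h than at 0 h in both genotypes.

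Photosystem I passes electrons on to ferredoxin, and its 5 plastid genes were all higher at 4 h (median difference 3.65). PSAA and PSAB encode the large reaction-centre pair and are transcribed together. PSAA stood at 1.87 and 2.11 FPKM at 0 h, 3.44 and 6.09 at 4 h, 1.72 and 5.38 at 8 h, 1.84 and 1.13 at 16 h and 1.79 and 2.24 at 30 h in Col-0. PSAA read 3.12 and 2.24 FPKM at 0 h, 51.8 and 96.3 at 4 h, 21.8 and 31.6 at 8 h, 6.62 and 5.74 at 16 h and 1.22 and 1.60 at 30 h in the ilp1-1-labelled libraries. The latter were above Col-0 from 0 h to 16 h and below it at 30 h, although only the 4, 8 and 16 h differences were called. At 4 h the difference was 3.67 ± 0.35 (SE, n = 2 against 2; limma adjusted p = 1.46e-06).

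PSAB stood at 1.45 and 2.73 FPKM at 0 h, 2.49 and 2.83 at 4 h, 1.18 and 2.35 at 8 h, 1.34 and 1.52 at 16 h and 1.02 and 1.99 at 30 h in Col-0. PSAB read 2.78 and 2.09 FPKM at 0 h, 34.2 and 68.4 at 4 h, 13.6 and 21.4 at 8 h, 2.94 and 2.05 at 16 h and 1.11 and 1.35 at 30 h in the ilp1-1-labelled libraries. The genotypes overlapped at 0 h and 30 h. The PSAB difference at 4 h was 3.76 ± 0.32 (SE, n = 2 against 2; limma adjusted p = 3.85e-07), the largest of the complex on this scale and within 0.0848 of that of its co-transcribed neighbour PSAA.

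PSAJ was the most abundant of the 44 genes in Col-0 (mean 66.4 FPKM) and had the smallest difference in its complex. PSAJ stood at 66.0 and 73.8 FPKM at 0 h, 67.9 and 80.5 at 4 h, 73.9 and 79.9 at 8 h, 54.5 and 62.7 at 16 h and 39.3 and 65.6 at 30 h in Col-0. PSAJ read 137 and 165 FPKM at 0 h, 163 and 266 at 4 h, 96.0 and 95.9 at 8 h, 62.8 and 60.9 at 16 h and 70.6 and 73.8 at 30 h in the ilp1-1-labelled libraries. It differed already before high light, with libraries labelled ilp1-1 above Col-0 at 0 h by 1.10 ± 0.21 (SE, n = 2 against 2; limma adjusted p = 0.00140). The 4 h difference was 1.48 ± 0.21 (SE, n = 2 against 2; limma adjusted p = 6.48e-05), and the change from 0 h to 4 h within the ilp1-1-labelled libraries did not pass the test (0.46 ± 0.21).

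The cytochrome b6f complex links the photosystems and pumps protons, and its 5 plastid genes were all higher at 4 h (median difference 4.17). PETN encodes a small subunit. PETN stood at 7.26 and 14.9 FPKM at 0 h, 6.96 and 5.62 at 4 h, 10.9 and 6.30 at 8 h, 10.3 and 5.68 at 16 h and 15.8 and 20.8 at 30 h in Col-0. PETN read 14.2 and 14.8 FPKM at 0 h, 80.6 and 235 at 4 h, 35.4 and 55.8 at 8 h, 11.4 and 14.97 at 16 h and 5.57 and 19.6 at 30 h in the ilp1-1-labelled libraries. The groups were apart at 4, 8 and 16 h and overlapped at 0 h and 30 h, and the 4 h difference was 4.26 ± 0.51 (SE, n = 2 against 2; limma adjusted p = 1.502e-05).

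PETB and PETD encode cytochrome b6 and subunit IV and share a unit with psbB, psbT and psbH. PETB stood at 1.65 and 2.99 FPKM at 0 h, 2.66 and 2.47 at 4 h, 2.93 and 2.96 at 8 h, 0.522 and 1.91 at 16 h and 1.73 and 3.76 at 30 h in Col-0. PETB read 2.39 and 1.91 FPKM at 0 h, 37.8 and 105 at 4 h, 16.0 and 27.7 at 8 h, 3.77 and 3.12 at 16 h and 1.74 and 3.27 at 30 h in the ilp1-1-labelled libraries. High values were limited to the 4 h and 8 h libraries labelled ilp1-1, with 0.522 to 3.77 FPKM in the other 16, although the genotypes were apart at 16 h too. PETB differed at 4 h by 4.17 ± 0.42 (SE, n = 2 against 2; limma adjusted p = 2.53e-06).

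PETD had the largest difference of the complex. PETD stood at 1.11 and 0.831 FPKM at 0 h, 1.62 and 2.62 at 4 h, 1.75 and 2.20 at 8 h, 2.102 and 0.756 at 16 h and 1.08 and 1.01 at 30 h in Col-0. PETD read 2.43 and 2.20 FPKM at 0 h, 40.2 and 117 at 4 h, 16.0 and 23.1 at 8 h, 2.93 and 1.26 at 16 h and 0.779 and 1.32 at 30 h in the ilp1-1-labelled libraries, above Col-0 at 0, 4 and 8 h and overlapping it later. The 4 h difference was 4.50 ± 0.39 (SE, n = 2 against 2; limma adjusted p = 5.67e-07). PETA, the cytochrome f gene, had the smallest at 2.44 ± 0.32 (SE, n = 2 against 2; limma adjusted p = 3.75e-05).

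ATP synthase turns the proton gradient into ATP, and its 6 plastid genes were all higher at 4 h, with a median difference of 2.24 against 3.57 over the 38 genes. ATPE encodes the epsilon subunit of the catalytic head. ATPE stood at 46.7 and 45.3 FPKM at 0 h, 24.7 and 19.0 at 4 h, 20.4 and 19.2 at 8 h, 15.5 and 9.88 at 16 h and 8.06 and 8.96 at 30 h in Col-0. ATPE read 28.5 and 32.0 FPKM at 0 h, 45.4 and 72.5 at 4 h, 23.0 and 35.4 at 8 h, 9.82 and 5.57 at 16 h and 7.07 and 6.37 at 30 h in the ilp1-1-labelled libraries. In Col-0 the level fell at each time with log2 differences of -1.05 ± 0.26, -1.18 ± 0.26, -1.81 ± 0.26 and -2.31 ± 0.26 at 4, 8, 16 and 30 h (all with adjusted p under the threshold). Libraries labelled ilp1-1 were below Col-0 at 0, 16 and 30 h and above it at 4 h and 8 h, with a 4 h difference of 1.36 ± 0.26 (SE, n = 2 against 2; limma adjusted p = 8.85e-04).

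ATPH encodes the membrane ring subunit. ATPH stood at 7.49 and 7.34 FPKM at 0 h, 7.32 and 8.22 at 4 h, 6.00 and 8.94 at 8 h, 5.50 and 7.42 at 16 h and 10.6 and 7.92 at 30 h in Col-0. ATPH read 10.4 and 5.40 FPKM at 0 h, 54.6 and 153 at 4 h, 34.1 and 46.5 at 8 h, 9.93 and 7.39 at 16 h and 4.59 and 4.02 at 30 h in the ilp1-1-labelled libraries. Only at 4 h and 8 h were the latter above Col-0, and the 4 h difference was 3.40 ± 0.36 (SE, n = 2 against 2; limma adjusted p = 4.38e-06).

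ATPF, a stalk subunit gene with an intron, had the largest difference of the complex. ATPF stood at 3.42 and 3.49 FPKM at 0 h, 0.988 and 2.28 at 4 h, 2.03 and 2.17 at 8 h, 3.05 and 1.71 at 16 h and 3.64 and 3.22 at 30 h in Col-0. ATPF read 4.71 and 2.23 FPKM at 0 h, 28.0 and 49.5 at 4 h, 11.1 and 16.4 at 8 h, 1.97 and 1.94 at 16 h and 2.48 and 2.29 at 30 h in the ilp1-1-labelled libraries. The groups were apart upward at 4 h and 8 h and overlapped at 0 h and 16 h. ATPF differed at 4 h by 3.91 ± 0.30 (SE, n = 2 against 2; limma adjusted p = 1.72e-07). ATPB, the catalytic beta subunit gene, had the smallest at 1.30 ± 0.22 (SE, n = 2 against 2; limma adjusted p = 3.44e-04), within 0.0621 of its overlapping neighbour ATPE.

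The NDH complex carries cyclic electron flow around photosystem I and is far less abundant than the photosystems. Of its 12 plastid genes, 6 passed the filter without the 4 h and 8 h libraries labelled ilp1-1, and these 6 were higher at 4 h. Their differences spanned 2.07 to 3.23 on a scale that understates the change of low genes, against 0.81 to 6.76 in photosystem II. NDHJ stood at 1.49 and 2.24 FPKM at 0 h, 1.15 and 1.94 at 4 h, 2.80 and 4.01 at 8 h, 1.77 and 2.75 at 16 h and 1.10 and 1.70 at 30 h in Col-0. NDHJ read 4.03 and 2.23 FPKM at 0 h, 12.2 and 25.2 at 4 h, 5.61 and 8.06 at 8 h, 2.69 and 1.27 at 16 h and 0.131 and 0.888 at 30 h in the ilp1-1-labelled libraries. These were above Col-0 at 4 h and 8 h. They were below it at 30 h, where they rest on 1 and 6 reads against 7 and 10 and the difference was not called. The 4 h difference was 2.88 ± 0.36 (SE, n = 2 against 2; limma adjusted p = 2.02e-05).

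NDHC had the largest difference of the complex, but only on the log2(FPKM + 1) scale. By the ratio of mean FPKM, NDHI, NDHF, NDHH, NDHA and NDHE stood above it, at 108, 43.4, 31.8, 19.8 and 15.9 against 15.01. These ratios rest on few reads, from 0 to 14 per gene in each Col-0 library at 4 h. NDHC stood at 0.982 and 3.32 FPKM at 0 h, 0.216 and 2.09 at 4 h, 1.16 and 1.95 at 8 h, 1.17 and 4.02 at 16 h and 1.85 and 1.57 at 30 h in Col-0. NDHC read 0.294 and 1.71 FPKM at 0 h, 14.8 and 19.8 at 4 h, 7.38 and 6.05 at 8 h, 4.07 and 0.928 at 16 h and 1.38 and 1.56 at 30 h in the ilp1-1-labelled libraries. The latter were above Col-0 at 4 h and 8 h and overlapped it at 0 h and 16 h. At 30 h they were nearly level with it, at 8 and 8 reads against 9 and 7 in Col-0. The difference at 4 h was 3.23 ± 0.53 (SE, n = 2 against 2; limma adjusted p = 2.78e-04), and the smallest of the complex was that of NDHK at 2.07 ± 0.33 (SE, n = 2 against 2; limma adjusted p = 2.12e-04). NDHJ and NDHC each had 1 read in their lowest library and NDHK 5, so single low values of these genes are uncertain.

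RBCL encodes the large subunit of Rubisco, the enzyme that fixes CO2. RBCL stood at 9.12 and 11.9 FPKM at 0 h, 12.2 and 14.0 at 4 h, 8.30 and 12.1 at 8 h, 10.9 and 7.70 at 16 h and 8.00 and 10.5 at 30 h in Col-0. RBCL read 13.6 and 11.01 FPKM at 0 h, 277 and 647 at 4 h, 138 and 199.9 at 8 h, 26.2 and 21.4 at 16 h and 8.05 and 7.65 at 30 h in the ilp1-1-labelled libraries. The latter were above Col-0 at 4, 8 and 16 h. The differences were 4.91 ± 0.30 (SE, n = 2 against 2; limma adjusted p = 1.79e-08) at 4 h, 3.92 ± 0.30 (SE, n = 2 against 2; limma adjusted p = 2.47e-07) at 8 h and 1.28 ± 0.30 (SE, n = 2 against 2; limma adjusted p = 0.00521) at 16 h. RBCL alone gave 26.8% and 28.1% of the genes' reads at 4 h in the ilp1-1-labelled libraries, against 11.7% and 11.8% in Col-0 at 4 h. At 16 h, when all 44 genes together gave 0.0182% and 0.0149% of all reads in the ilp1-1-labelled libraries, RBCL made up 24.1% and 24.2% against 13.9% and 11.5% in Col-0.

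**Figure D3:**
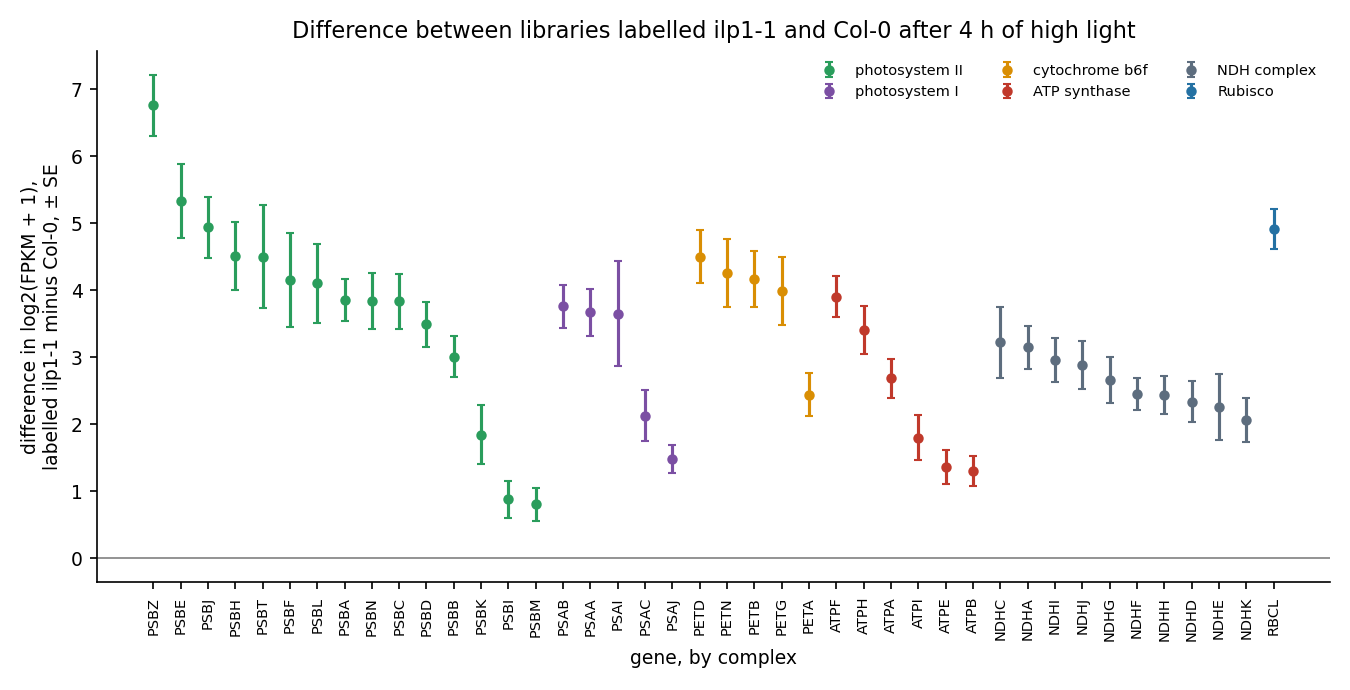
Each point is the difference at 4 h in log2(FPKM + 1), libraries labelled ilp1-1 minus Col-0, for 1 of the 42 tested genes with its standard error, ordered by complex. All lie above 0, from 0.81 for PSBM to 6.76 for PSBZ. NDHD, NDHI, NDHH and NDHF reached the filter only through the 4 h and 8 h libraries labelled ilp1-1, so the filter favoured this direction. The median is 2.24 for ATP synthase and 3.65 to 4.17 for the photosystems and the cytochrome b6f complex, and the pseudocount of 1 understates the points of the low NDH genes.

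The size of the 4 h difference varied between genes of one complex and between genes transcribed together. Within the textbook co-transcribed units, on the log2(FPKM + 1) scale, the span between the lowest and the highest difference was 0.0848 for psaA and psaB and 0.0621 for atpB and atpE. It was 1.16 for ndhC, ndhK and ndhJ, 1.23 for psbE, psbF, psbL and psbJ, and 1.51 for psbB, psbT, psbH, petB and petD. It was 0.96 for psbK and psbI, 2.11 for atpI, atpH, atpF and atpA, and 3.27 for psbD, psbC and psbZ, where PSBD was the lowest and PSBZ the highest. The 7 genes of the ndhH to ndhD unit spanned 1.02 on this scale but 4.22 in the log2 of the ratio of mean FPKM, from 5.79 for PSAC to 108 for NDHI. Of these 7, only 4 passed the filter without the high libraries, and NDHI had 1 and 0 reads in Col-0 at 4 h. For the other units, spans in the log2 of the ratio of mean FPKM were 0.315 for psaA and psaB and 0.00853 for atpB and atpE. They were 1.21 for psbK and psbI, 1.43 for the ndhC unit and 1.48 for the psbE unit. The psbB unit spanned 2.05, the atpI unit 2.15 and the psbD unit 3.53. No test was made of these spans.

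The 3 genes highest in Col-0, PSAJ, PSBI and PSBM, were among the 5 with the smallest 4 h differences. Over the 38 genes, mean Col-0 FPKM and the 4 h difference had a Spearman rho of -0.146 and a Pearson r of -0.501, given as a description of genes that share libraries and units. The Col-0 mean includes the 4 h libraries that the difference subtracts, so the measures are not independent. The 6 genes highest in Col-0 (PSAJ, PSBI, PSBM, PSBA, ATPE and PSBK), a cut chosen after the values were seen, had a median difference of 1.42, and the other 32 of the 38 had 3.72. PSBA, at 3.85, was the exception among the 6. The pseudocount of 1 understates differences of the low genes, most of all of the NDH genes.

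**Figure D4:**
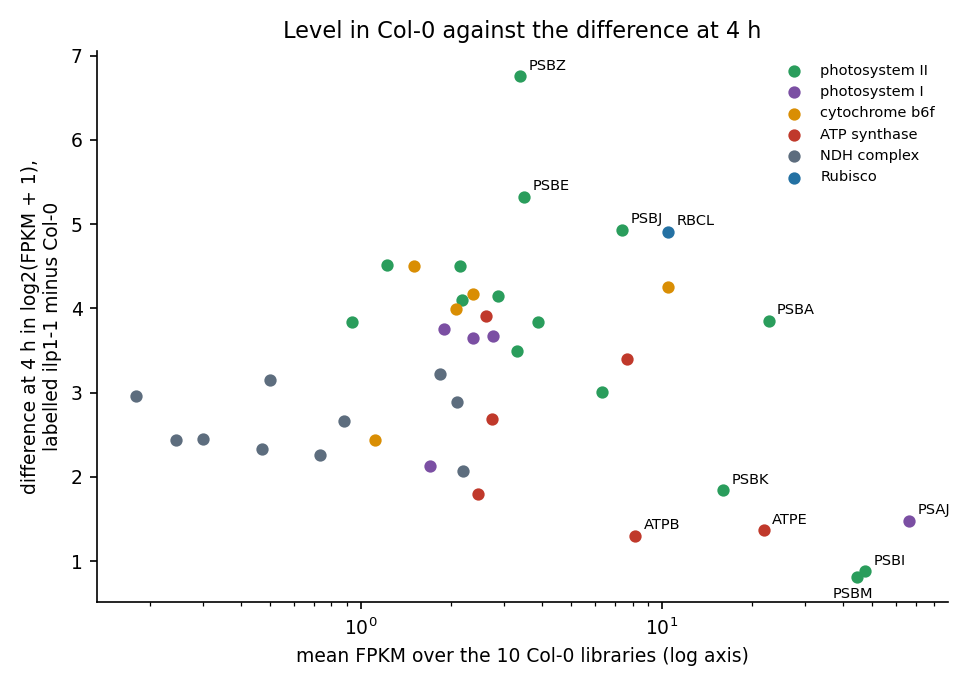
Each point is a gene, with its mean FPKM over the 10 Col-0 libraries on a log axis and its 4 h difference in log2(FPKM + 1), coloured by complex. PSAJ, PSBI and PSBM, the 3 highest genes in Col-0, have differences from 0.81 to 1.48, and PSBZ at 3.39 FPKM has 6.76.

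The response over time was tested next. Within the ilp1-1-labelled libraries, of the 38 genes that reached the filter without the 4 h and 8 h libraries, 35 rose from 0 h to 4 h and none fell (limma; 20.6% of all genes tested rose and 20.4% fell, 41.0% in all). The largest rises were PSBZ at 6.12 ± 0.45 and PSBL, a small photosystem II subunit, at 5.33 ± 0.59, and the smallest that passed were ATPE at 0.91 ± 0.26 and ATPB at 1.31 ± 0.22. In Col-0 over the same hours, 2 of the 38 rose and 2 fell (22.6% of all genes rose and 23.5% fell, 46.1% in all). PSBL rose by 1.53 ± 0.59 and PSAA by 0.91 ± 0.35, while ATPE and ATPF changed by -1.05 ± 0.26 and -0.81 ± 0.30. The PSBL rise rests on 0 and 5 reads at 0 h and 9 and 5 at 4 h. With no filter, total-read scaling, no intensity trend or limma-voom, no gene of the set passed upward in Col-0 from 0 h to 4 h. The difference between genotypes in this change passed for 33 of the 38 genes, all toward a larger rise in the ilp1-1-labelled libraries (4.22% of all genes passed upward and 5.12% downward, 9.34% in all). PSBZ at 6.51 ± 0.64 (SE, n = 2 in each of 4 groups; limma adjusted p = 1.23e-05) and PSBE, the cytochrome b559 alpha subunit gene, at 5.82 ± 0.78 (SE, n = 2 in each of 4 groups; limma adjusted p = 2.43e-04) had the largest differences, and NDHK at 1.68 ± 0.47 and ATPB at 1.75 ± 0.31 the smallest that passed. With the 4 genes that reached the filter only through the high libraries the count was 37 of 42, and with limma-voom on recovered reads it was 18 of 42.

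By 8 h the pattern was smaller. Between genotypes, 27 of the 38 genes were higher with the ilp1-1 label and none lower (14.3% of all genes higher and 15.2% lower, 29.5% in all), with a median difference of 2.03. PSBZ at 5.21 ± 0.45 (SE, n = 2 against 2; limma adjusted p = 6.74e-07) and PSBL at 4.49 ± 0.59 (SE, n = 2 against 2; limma adjusted p = 3.71e-05) led. PSBL had 2 and 1 reads in the Col-0 8 h libraries, so the size of its difference is uncertain. PETA at 1.05 ± 0.32 and NDHG, an NDH subunit gene, at 1.10 ± 0.34 were the smallest that passed. PSBM, at -0.25 ± 0.25, did not pass at 8 h, nor did PSAJ at 0.32 ± 0.21. Within the ilp1-1-labelled libraries, 28 of the 38 were above 0 h and 2 below it (23.8% of all genes higher and 23.2% lower, 47.0% in all). PSBL at 4.13 ± 0.59 and PSBZ at 3.77 ± 0.45 were the highest, and PSBM at -0.77 ± 0.25 and PSAJ at -0.65 ± 0.21 were the 2 that fell. In Col-0 at 8 h, 1 gene of the 38 was above 0 h and 5 were below it (24.9% and 25.1% of all genes, 50.1% in all). PSBN is named for photosystem II and lies between psbT and psbH on the other strand. The strand setting of the counting is not given, so its values at every time, 4 h included, cannot be told apart from reads of the psbB unit's RNA. PSBN rose by 2.06 ± 0.42 and ATPB changed by -0.61 ± 0.22, while PSBZ and ATPE changed by -1.19 ± 0.45 and -1.18 ± 0.26.

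The difference in the change from 0 h to 8 h passed for 21 of the 38 genes, all upward (6.49% of all genes upward and 6.78% downward, 13.3% in all). PSBZ at 4.96 ± 0.64 (SE, n = 2 in each of 4 groups; limma adjusted p = 9.59e-05) and PSBL at 4.19 ± 0.83 (SE, n = 2 in each of 4 groups; limma adjusted p = 0.00314) were largest. In Col-0, PSBL rests on 0 and 5 reads at 0 h and 2 and 1 at 8 h. ATPB at 1.01 ± 0.31 and NDHA at 1.56 ± 0.46 were the smallest that passed. The count was 12 without ilp1-1 8 h replicate 2 and 9 with limma-voom on recovered reads.

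From 4 h to 8 h in the ilp1-1-labelled libraries, 25 of the 38 genes fell and none rose (6.14% of all genes rose and 6.66% fell, 12.8% in all), led by PSBZ at -2.35 ± 0.45 (SE, n = 2 against 2; limma adjusted p = 0.00228) and PSBC, the CP43 antenna protein gene, at -1.85 ± 0.41 (SE, n = 2 against 2; limma adjusted p = 0.00655). ATPE at -0.98 ± 0.26 and ATPB at -0.91 ± 0.22 were the smallest that passed. Over 42 genes, with the 4 that reached the filter only through these libraries, the count was 29, but it rests on the high replicate: it was 5 without ilp1-1 4 h replicate 2, 8 without ilp1-1 8 h replicate 1, and 3 when only the libraries of these groups were fitted. From 8 h to 16 h, 32 of the 38 fell and none rose (7.77% of all genes rose and 13.4% fell, 21.2% in all), with PSBZ at -3.48 ± 0.45 (SE, n = 2 against 2; limma adjusted p = 5.63e-05) and PSBE at -3.47 ± 0.55 (SE, n = 2 against 2; limma adjusted p = 3.54e-04) the largest and PETA at -1.06 ± 0.32 and PSAJ at -0.63 ± 0.21 the smallest.

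**Figure D5:**
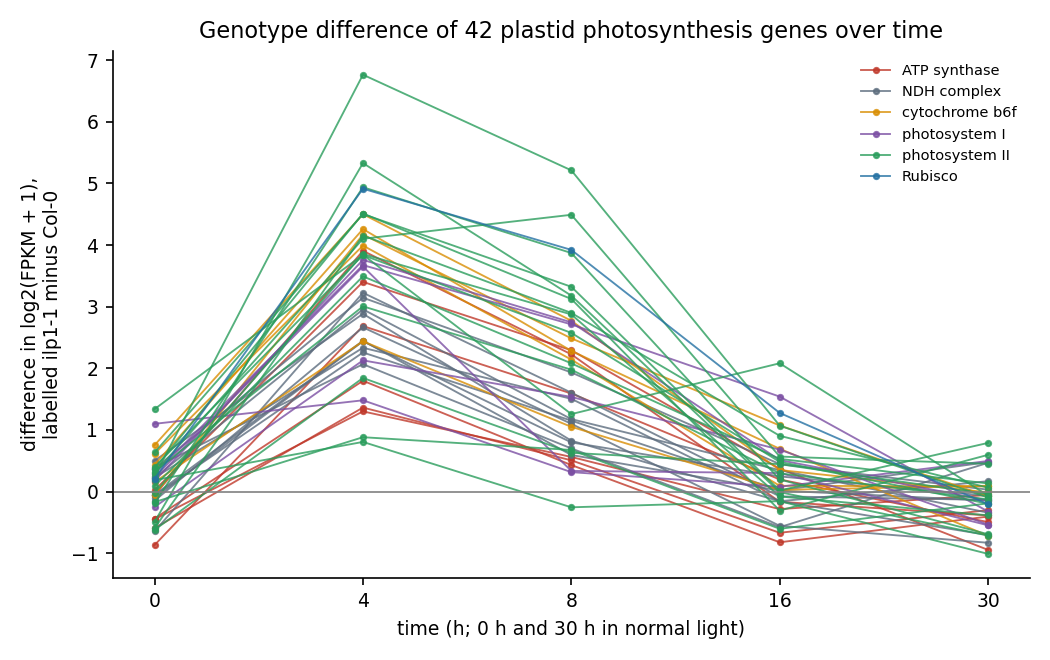
Lines join, for each of the 42 tested genes, the difference in log2(FPKM + 1) between libraries labelled ilp1-1 and Col-0 at 0, 4, 8, 16 and 30 h, coloured by complex. All lines lie above 0 at 4 h, and at 30 h the median is -0.14. For NDHD, NDHI, NDHH and NDHF, the filter favoured high values at 4 h and 8 h with the ilp1-1 label.

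Before and after this window few of these genes were called different between the genotypes. With few reads for many of them, a missing call does not show equal levels. At 16 h the whole set still gave 0.0182% and 0.0149% of all reads in the ilp1-1-labelled libraries, against 0.0107% and 0.00943% in Col-0. At 0 h and 30 h these shares overlapped between the genotypes. At 0 h, 2 of the 42 genes were higher and 1 lower in the ilp1-1-labelled libraries (10.0% and 12.2% of all genes, 22.2% in all), namely PSBN at 1.34 ± 0.42, PSAJ at 1.10 ± 0.21 and ATPA, the catalytic alpha subunit gene, at -0.87 ± 0.29. At 16 h, PSBN at 2.08 ± 0.42, PSAA at 1.54 ± 0.35 and RBCL at 1.28 ± 0.30 were higher and none was lower (11.0% and 16.7% of all genes, 27.7% in all). At 30 h only PSBM passed, at -1.01 ± 0.25 (17.2% higher and 16.8% lower of all genes, 34.0% in all). PSBN was at 0 FPKM in 6 of the 20 libraries, Col-0 at 0 h and 16 h among them, so its differences depend on the pseudocount. Counts of this size moved as single libraries were left out, to 1 to 2 at 0 h, 3 to 5 at 16 h and 0 to 2 at 30 h.

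The late changes came at shares below or near those of all genes. In Col-0 at 16 h, 1 gene of 42 was above 0 h and 8 below it (22.2% and 19.8% of all genes, 42.0% in all). PSBK and ATPE changed by -1.97 ± 0.44 and -1.81 ± 0.26, and PETG, a small cytochrome b6f subunit gene, by 1.54 ± 0.51. The PETG rise rests on 2 and 1 reads at 0 h and 9 and 4 at 16 h. With a pseudocount of 0.1 or with limma-voom, no gene of the set was called higher here. PSBB, the CP47 antenna protein gene, was the next highest that passed at -0.79 ± 0.31. At 30 h in Col-0, 5 of 42 were lower and none higher than at 0 h (19.7% and 20.8% of all genes, 40.4% in all), ATPE at -2.31 ± 0.26, PSBK at -2.16 ± 0.44, PSBI at -1.72 ± 0.28, ATPB at -1.41 ± 0.22 and ATPA at -1.10 ± 0.29.

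Libraries labelled ilp1-1 at 16 h had 2 of 42 genes above 0 h and 6 below it (21.7% and 22.1% of all genes, 43.8% in all). PSAA at 0.97 ± 0.35 and RBCL at 0.90 ± 0.30 were higher, and PSBI at -1.93 ± 0.28 and ATPE at -1.89 ± 0.26 were the lowest. At 30 h, 10 were lower and none higher (24.5% and 27.6% of all genes, 52.1% in all), with ATPE at -2.01 ± 0.26 and PSBM at -1.82 ± 0.25 the lowest and ATPA at -0.72 ± 0.29 and ATPB at -1.02 ± 0.22 the nearest to 0. The difference between genotypes in these late changes passed for PSAJ alone at 16 h (-1.02 ± 0.29 (SE, n = 2 in each of 4 groups; limma adjusted p = 0.0293); 4.6% of all genes upward and 9.59% downward, 14.2% in all) and for PSBM alone at 30 h (-1.20 ± 0.35 (SE, n = 2 in each of 4 groups; limma adjusted p = 0.0279); 7.65% and 9.19%, 16.8% in all). Neither call was stable: both counts were 0 with no filter, with no intensity trend and with limma-voom, that at 16 h also with total-read scaling and without any 1 of 6 libraries, and that at 30 h without any 1 of 4. These comparisons share the 0 h libraries within a genotype.

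Other plastid genes moved in the same direction at 4 h. Among the other protein-coding plastid genes, 22 of 26 that passed the filter without the 4 h and 8 h libraries labelled ilp1-1 were higher and none lower (median difference 2.30). Among plastid tRNA and rRNA genes 26 of 29 were higher (3.35), against 14.7% of all genes tested. Genes of the mitochondrial genome did not follow, with none of 30 higher and 7 lower (-0.51), against 15.8% of all genes lower. The share of reads from mitochondrial genes was 0.00502% to 0.00901% in the 16 other libraries and 0.00751 ± 0.000626% (SD, n = 2) at 4 h in the ilp1-1-labelled libraries.

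Nuclear genes for subunits of the same complexes were mostly lower in the ilp1-1-labelled libraries, already before high light. Of 39 tested, 34 were lower and 1 higher in the ilp1-1-labelled libraries at 4 h (median -0.55), against 14.7% of all genes higher and 15.8% lower. Lower at 0 h were 30 (12.2% of all genes), at 8 h 31 (15.2%), at 16 h 39 (16.7%) and at 30 h 39 (16.8%). Smallest in adjusted p at 4 h were RBCS2B, a Rubisco small subunit gene, at -1.04 ± 0.05 (SE, n = 2 against 2; limma adjusted p = 4.45e-09), PNSB3 of the NDH complex at -1.21 ± 0.07, and PSAD1 and PSAD2, both for the ferredoxin-docking subunit of photosystem I, at -0.75 ± 0.05 and -1.14 ± 0.08. NDHM, an NDH subunit gene, was the 1 that was higher, at 0.31 ± 0.08. At 4 h the plastid-encoded and nuclear-encoded parts of the same complexes therefore differed in opposite directions. For the nuclear genes this was mostly a difference that was present at 0 h too.

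Genes for plastid transcription were split. Of 22 that passed the filter without the 4 h and 8 h libraries labelled ilp1-1, 6 were higher and 9 lower at 4 h (14.7% and 15.8% of all genes). Among the core polymerase subunit genes, which are themselves plastid-encoded, RPOA was higher at 2.98 ± 0.37 (SE, n = 2 against 2; limma adjusted p = 1.93e-05) and RPOB at 0.92 ± 0.20. The other core genes, RPOC1 and RPOC2, reached the filter only through those libraries, with 6.49 ± 3.50 and 4.38 ± 2.42 FPKM there at 4 h and 0.119 ± 0.00614 and 0.108 ± 0.00835 FPKM in Col-0 (SD, n = 2 each). Among 6 sigma factors, SIG5, a light- and stress-responsive one known to act on psbD, was higher at 1.51 ± 0.18 (SE, n = 2 against 2; limma adjusted p = 1.54e-05), SIG1 was higher at 0.26 ± 0.07, and the other 4 did not pass. SIG5 fell from 0 h to 4 h in Col-0 at -1.28 ± 0.18, and in the ilp1-1-labelled libraries the change did not pass at -0.35 ± 0.18. Of the phage-type polymerase genes, RPOTMP stood at 11.1 ± 1.13 FPKM at 4 h in the ilp1-1-labelled libraries against 7.42 ± 0.0458 in Col-0. RPOTP was at 21.2 ± 0.371 against 19.7 ± 1.41 FPKM (SD, n = 2 each). Of 12 nuclear-encoded proteins associated with the plastid polymerase, 1 was higher and 9 were lower. Among these 12, TRXZ stood at 57.6 ± 3.97 FPKM at 4 h in the ilp1-1-labelled libraries against 84.2 ± 3.51 in Col-0. PTAC7 was at 144 ± 1.17 against 201 ± 15.9 FPKM (SD, n = 2 each).

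Of 17 genes for plastid RNA stability, 2 were higher and 7 lower at 4 h (14.7% and 15.8% of all genes), with a median difference of -0.20. At 0 h, 5 were higher and 3 lower (10.0% and 12.2% of all genes). The higher were CP29A at 0.92 ± 0.06 and the 4 genes that the list groups as decay genes. Outside those 4, the endonuclease gene CSP41A stood lower, at 224 ± 0.903 FPKM with the ilp1-1 label against 312 ± 14.0 in Col-0. CSP41B was at 424 ± 0.121 against 473 ± 28.6 FPKM (SD, n = 2 each). The smallest adjusted p at 4 h belonged to 4 genes. CP29A, an RNA-binding protein gene, was at -0.84 ± 0.06 (SE, n = 2 against 2; limma adjusted p = 6.71e-08) and CSP41A at -0.92 ± 0.07. CP33A and CP31A, further RNA-binding protein genes, were at -0.67 ± 0.07 and -0.42 ± 0.06. HCF173, which is needed for psbA translation, was higher at 0.71 ± 0.10, and HCF152, which binds RNA of the psbB unit, at 0.42 ± 0.09. PNP, the polynucleotide phosphorylase that adds and removes tails of plastid RNA, did not pass at -0.17 ± 0.09. The part of these genes, of RNA capture and of sampling in the plastid values was not tested.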

How the data were processed

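Gene expression was measured by RNA sequencing of poly-A-selected RNA from whole leaves, in 20 libraries of 10 groups. The authors deposited 1 table of FPKM per group for 33104 genes. The submitters' processing notes name featureCounts 1.5.0-p3, HISAT2 2.0.5 and the TAIR10 build. Not given in the sources used here were counting options, strandedness and the FPKM tool. FPKM times gene length gave whole reads in every library within 0.001 reads, and these recovered reads, 11.4 M to 19.0 M per library, set the shares and the depth. The deposited FPKM of all 20 libraries share 1 scaling, since their denominators follow size factors of the median-of-ratios kind, and tables can be compared.

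Tests used limma 3.58.1 in R 4.3.3 on log2(FPKM + 1), with 10 group means and a prior variance that follows intensity (10 residual degrees of freedom, 5.12 prior ones at the median). The 19311 genes tested reached 1 FPKM in 2 or more libraries. Adjusted p-values are Benjamini-Hochberg over all these genes within each of 19 comparisons, with a threshold of 0.05. Standard errors and p-values come from this fit, which pools the spread of all 20 libraries, also where n = 2 against 2 is given. A pseudocount of 1 understates fold changes of low genes. The fit was tested on simulated data. Alternatives were a pseudocount of 0.1, no filter, scaling to total reads, no trend, limma-voom on recovered reads, the replicate number as a block, each comparison's own libraries, and leaving out each library.

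The genes and lists were chosen with earlier results of these data known. For each complex the text names the 2 genes of highest mean FPKM over all 20 libraries, which the high 4 h and 8 h libraries weight, and those with the largest and smallest difference at 4 h, and always PSBA, PSBD, PSAA, PSAB and RBCL. For every other comparison it names each gene that passed if there were 5 or fewer, otherwise the 2 highest and 2 lowest. Of each list of nuclear or plastid partner genes it names up to 4 by smallest adjusted p at 4 h. PSBI and the sequence of PSBE, and RPOB, SIG1, RPOTP, RPOTMP, TRXZ, PTAC7, NDHM, HCF173, HCF152, PNP and CSP41B, were chosen after their values were seen. Sequences were read from RefSeq TAIR10.1. Figures were drawn with matplotlib 3.10.9.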

Additional observations from a re-analysis of the deposited data

Results flagged for a closer look

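The results below stand out because the change from 0 h differed between the genotypes in a test of that difference itself. For the change from 0 h to 4 h, 37 of the 42 genes tested differed (limma, adjusted p under 0.05), against 9.34% of all genes. Of the 42, 4 reached the filter only through the 4 h and 8 h libraries labelled ilp1-1, and without them 33 of 38 differed. With limma-voom 18 of the 42 did. On the log2(FPKM + 1) scale the difference was 6.51 for PSBZ, 5.82 for PSBE, 1.68 for NDHK and 1.75 for ATPB, each toward a larger rise in the libraries labelled ilp1-1. For the change from 0 h to 8 h, 21 differed, against 13.3% of all genes, and the count was 9 with limma-voom and 12 without ilp1-1 8 h replicate 2. The difference was 4.96 for PSBZ, 4.19 for PSBL, 1.01 for ATPB and 1.56 for NDHA.

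The late changes differed for 1 gene each, against 14.2% of all genes at 16 h and 16.8% at 30 h, and for 0 with limma-voom. PSAJ differed in the change from 0 h to 16 h, at -1.02, and PSBM in the change from 0 h to 30 h, at -1.20. PSAJ changed by -1.27 in the libraries labelled ilp1-1 and by -0.25 in Col-0, and PSBM by -1.82 and -0.62, of which the Col-0 values did not pass the test. With groups of 2 libraries, no single library could be tested as standing apart.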

How the results depend on the processing

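The 4 h difference between genotypes kept its direction for all 19 named genes in every alternative fit: of 209 values, 206 stayed past the threshold and 3 did not, all of them for PSBM (0.81 on the contrast's own libraries, 0.70 without Col-0 4 h replicate 2 and 0.43 without ilp1-1 4 h replicate 2). The other values below are counts of genes called, of 42 tested unless no filter was used, 4 of which reached the filter only through the ilp1-1 libraries at 4 h and 8 h. With only the 4 h libraries fitted, 37 were called between genotypes at 4 h, against 42. The cause of the moves was not tested. Total-read scaling moved the median of all genes at 4 h from 0.01 to 0.14, at 16 h to 0.23 and at 30 h to 0.22, so called directions are relative to that shift.

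Leaving out 1 library gave 39 to 42 calls between genotypes at 4 h, 22 to 26 at 8 h, 1 to 2 at 0 h, 3 to 5 at 16 h and 0 to 2 at 30 h. For Col-0 against its 0 h level it gave 1 to 2 at 4 h, 2 to 5 at 8 h, 4 to 7 at 16 h and 4 to 8 at 30 h. For ilp1-1 against its own 0 h level it gave 35 to 42, 24 to 30, 4 to 10 and 7 to 11 at the same times, 5 to 34 from 4 h to 8 h and 23 to 29 from 8 h to 16 h. For the genotype difference in the change from 0 h it gave 33 to 39, 12 to 21, 0 to 1 and 0 to 2. Counts moved by over 1.5 times without these libraries: at 0 h either Col-0 library or ilp1-1 replicate 1 (1); at 16 h ilp1-1 replicate 1 (5); at 30 h Col-0 replicate 2 or ilp1-1 replicate 2 (2) and ilp1-1 replicate 1 (0). In Col-0 they were any library of 0 h or 4 h for 4 h (1 or 2), 0 h replicate 2 (2) or 8 h replicate 2 (3) for 8 h, 0 h replicate 2 (5) or 16 h replicate 1 (4) for 16 h, and 30 h replicate 2 (8) for 30 h. For ilp1-1 at 16 h against 0 h it was 16 h replicate 1 (4). For the change to 8 h it was ilp1-1 8 h replicate 2 (12), and from 4 h to 8 h in ilp1-1 it was 4 h replicate 2 (5) or 8 h replicate 1 (8). The single call in the change to 16 h was lost without any 1 of 6 libraries (Col-0 0 h replicate 1 or 2, Col-0 16 h replicate 2, ilp1-1 0 h replicate 2, ilp1-1 16 h replicate 1 or 2), and that to 30 h without Col-0 0 h replicate 1 or 2, Col-0 30 h replicate 2 or ilp1-1 30 h replicate 1, while Col-0 30 h replicate 1 gave 2.

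The single late calls were not stable. The genotype difference in the change to 16 h had 0 calls with no filter, total-read scaling, no intensity trend or limma-voom, 3 on its own libraries and 2 when ilp1-1 at 4 h and 8 h was left out. That in the change to 30 h had 0 with no filter, no intensity trend or limma-voom. Against 3 at 0 h, no filter gave 1. Against 3 at 16 h, a pseudocount of 0.1 gave 5, total-read scaling 5, and a fit with ilp1-1 at 4 h and 8 h left out, an alternative chosen after seeing the data, 7. Against 1 at 30 h these gave 4, 2 and 3, limma-voom 0 and the contrast's own libraries 2. In Col-0 at 4 h (4), no filter gave 1, total-read scaling 2, no intensity trend 1 and limma-voom 1. In Col-0 at 8 h (6), no filter gave 3, total-read scaling 3 and its own libraries 10. In Col-0 at 30 h (5), a pseudocount of 0.1 gave 8, its own libraries 10 and leaving out ilp1-1 at 4 h and 8 h 8. For ilp1-1 at 16 h against 0 h (8), no filter and limma-voom each gave 5. Limma-voom gave 18 against 37 for the difference in the change to 4 h, and 9 against 21 for that to 8 h. From 4 h to 8 h in ilp1-1 (29), a pseudocount of 0.1 gave 18 and its own libraries 3.

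With the replicate number as a block, 18 of 19 counts stayed within 1.5 times, and the exception was 30 h between genotypes, 2 against 1. Same-numbered libraries of a time had correlated deviations of -0.13 to 0.01, and 1 of 45 pairs of groups was above 0.1. These values show no shared deviation by number. Whether same-numbered libraries were grown or handled together is not given by the labels.

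As a share of summed FPKM, the 44 genes gave 0.0570%, 0.0462%, 0.0448%, 0.0343% and 0.0360% in Col-0 at 0, 4, 8, 16 and 30 h, and 0.0709%, 0.560%, 0.188%, 0.0476% and 0.0378% in ilp1-1. Short genes weigh more in FPKM than in reads. Genes with a few reads per library in Col-0, such as the NDH genes, limit the precision of single values.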
